A study of Mus musculus with 12 samples.

Results

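The mouse tongue is built of epithelium, connective tissue and skeletal muscle, and the 12 libraries of this series were ordered here by their level of skeletal muscle RNA. The muscle score of a library was the mean log2(FPKM + 0.1) of 5 genes of fast skeletal muscle, namely Acta1 (skeletal α-actin), Ckm (muscle creatine kinase), Tnnt3 (fast troponin T), Mylpf (fast regulatory light chain) and Atp2a1 (the fast calcium pump of the sarcoplasmic reticulum). FPKM is the number of sequenced fragments of a gene divided by its length and by the size of the library. The 4 libraries with the highest scores are called muscle-rich, the 4 with the lowest muscle-poor, and the other 4 between, so 8 of 12 libraries were contrasted. Because the libraries were chosen by a measured value, the contrast is described without a test, and the 5 scoring genes are left out of its results.

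All mice were C57BL/6 and had drunk water with the carcinogen 4NQO (4-nitroquinoline 1-oxide) at 100 µg/mL, over 16 weeks. From 4 weeks after its start, 6 mice were gavaged with gallic acid (GA) at 100 mg/kg 5 times per week and 6 with vehicle. RNA was taken from tongue, labelled as tumor and tumor-associated tissue, and each numbered library was taken as 1 mouse, which the labels do not state. Library totals ranged from 18040152 to 25192491 reads. The muscle-rich libraries were GA 5, GA 1, GA 2 and vehicle 3, and the muscle-poor ones vehicle 1, GA 6, vehicle 4 and vehicle 5, in rising order of score. Values of the 4 libraries of a class are given in this order. The classes were therefore unbalanced for treatment, with 3 GA libraries among the muscle-rich and 1 among the muscle-poor. Reads on Y-linked genes were present in 2 libraries of each class. Lipf, a lipase of the tongue's serous glands, was at 8766, 25476 and 20091 FPKM in vehicle 5, GA 2 and vehicle 3 and at most 0.508 FPKM elsewhere, so its RNA was high in 2 muscle-rich libraries and 1 muscle-poor library.

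Skeletal muscle of the tongue is made almost entirely of fast fibres. Their contractile units, the sarcomeres, hold actin and myosin filaments, which calcium released from the sarcoplasmic reticulum sets in motion through the troponins. Creatine kinase, glycolysis and densely packed mitochondria supply the energy. The stratified epithelium that covers the muscle divides in its basal layer, where Krt5 and Krt14 are made, and differentiates upwards with Krt4 and Krt13. Krt6a, Krt6b, Krt16 and Krt17 are grouped here as stress keratins, a label that does not by itself show wounding or growth.

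All 12 libraries contained muscle RNA, and the order was a gradient rather than a split into present and absent. The score was 7.42, 8.22, 8.67 and 8.84 in the muscle-poor libraries, 9.40 to 9.72 in the 4 between, and 10.02, 10.23, 10.25 and 10.55 in the muscle-rich ones. The class means lay 1.98 apart on the log2 scale. At the limits, vehicle 5 (8.84) was inside the muscle-poor class and GA 4 (9.40) just outside, while GA 5 (10.02) was inside the muscle-rich class and GA 3 (9.72) just outside. Acta1 itself ran from 383 FPKM in vehicle 1 to 3671 FPKM in vehicle 3. With Myh4, Tnni2, Tnnc2, Myl1 and Casq1 as scoring genes the 4 muscle-poor libraries were the same, and GA 3 took the place of one muscle-rich library, GA 2. The swap was narrow, with scores of 6.191 in GA 3, 6.188 in GA 5 and 6.177 in GA 2. Tnnc2, at 0 in 7 libraries, adds little to this score but noise.

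**Figure D1:**
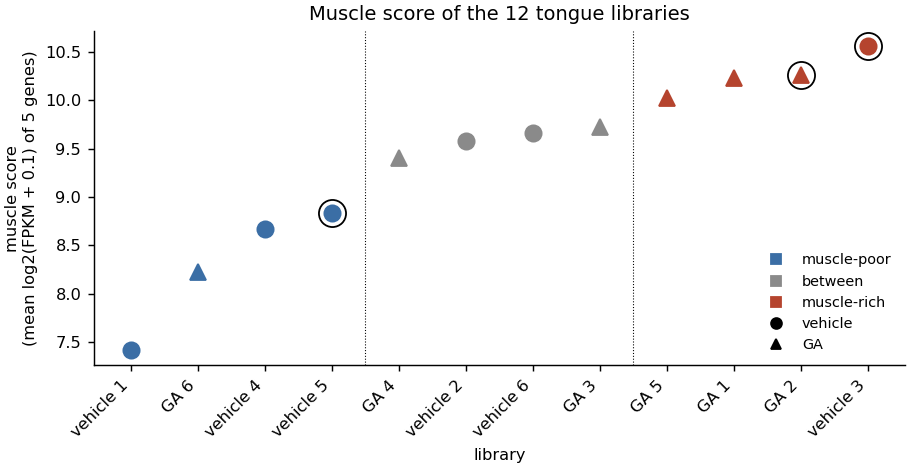
Muscle score, the mean log2(FPKM + 0.1) of Acta1, Ckm, Tnnt3, Mylpf and Atp2a1 (y axis), of the 12 libraries in rising order (x axis). Each point is 1 library, coloured by class and shaped by treatment, a ring marks the 3 libraries with high Lipf, and dotted lines mark the class limits; scores climb from 7.42 in vehicle 1 to 10.55 in vehicle 3.

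More genes were higher than lower in the muscle-rich libraries, and the split widened with the limit on size. FPKM values were scaled between libraries by the trimmed-mean method (TMM) and compared as log2(scaled FPKM + 0.1), a scale that understates differences of low genes. A gene counted as higher or lower where the 4 muscle-rich libraries did not overlap the 4 muscle-poor ones and the means differed by at least 0.58. Of 16847 genes compared, 1476 were higher (8.76%) and 490 lower (2.91%) in the muscle-rich libraries, and the median difference over all genes was -0.06. Without the limit on the means, 1828 genes lay above and 1292 below with no overlap. Higher genes made up 75.1% of the counted genes, and 63.4% (1255 higher and 726 lower) on the deposited values without scaling. The higher side was also larger in size, with a median difference of 1.28 and 175 genes past 2, against a median size of 0.77 and 2 genes past 2 on the lower side. The count of lower genes depended on single libraries, at 1073 (beside 1646 higher) without vehicle 1 and 823 (beside 2048 higher) without vehicle 5. In bulk tissue, fewer cells of a type and less RNA per cell cannot be told apart, and this holds for each gene below.

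Muscle genes outside the score were higher as a body. Of 69 genes compared in 8 muscle lists, 47 were higher (68.1%, beside 8.76% of all genes compared) and 0 lower. The median difference was 1.87, close to the 1.98 of the score. Without the 3 libraries with high Lipf 56 were higher and 2 lower, beside 2491 and 1285 of all 16847 genes. For the 5 highest against the 5 lowest libraries 32 were higher, beside 742 of all genes. For 6 against 6 the count was 5, beside 137. The class median was 2.24 among the vehicle libraries alone, 1.91 among the GA libraries, 2.22 among libraries with Y-linked reads and 1.45 among those without. The share of all deposited FPKM on named genes that fell on the muscle lists was 0.691, 1.19, 1.69 and 1.78% in the muscle-poor libraries and 3.77, 4.40, 4.26 and 5.21% in the muscle-rich ones.

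**Figure D2:**
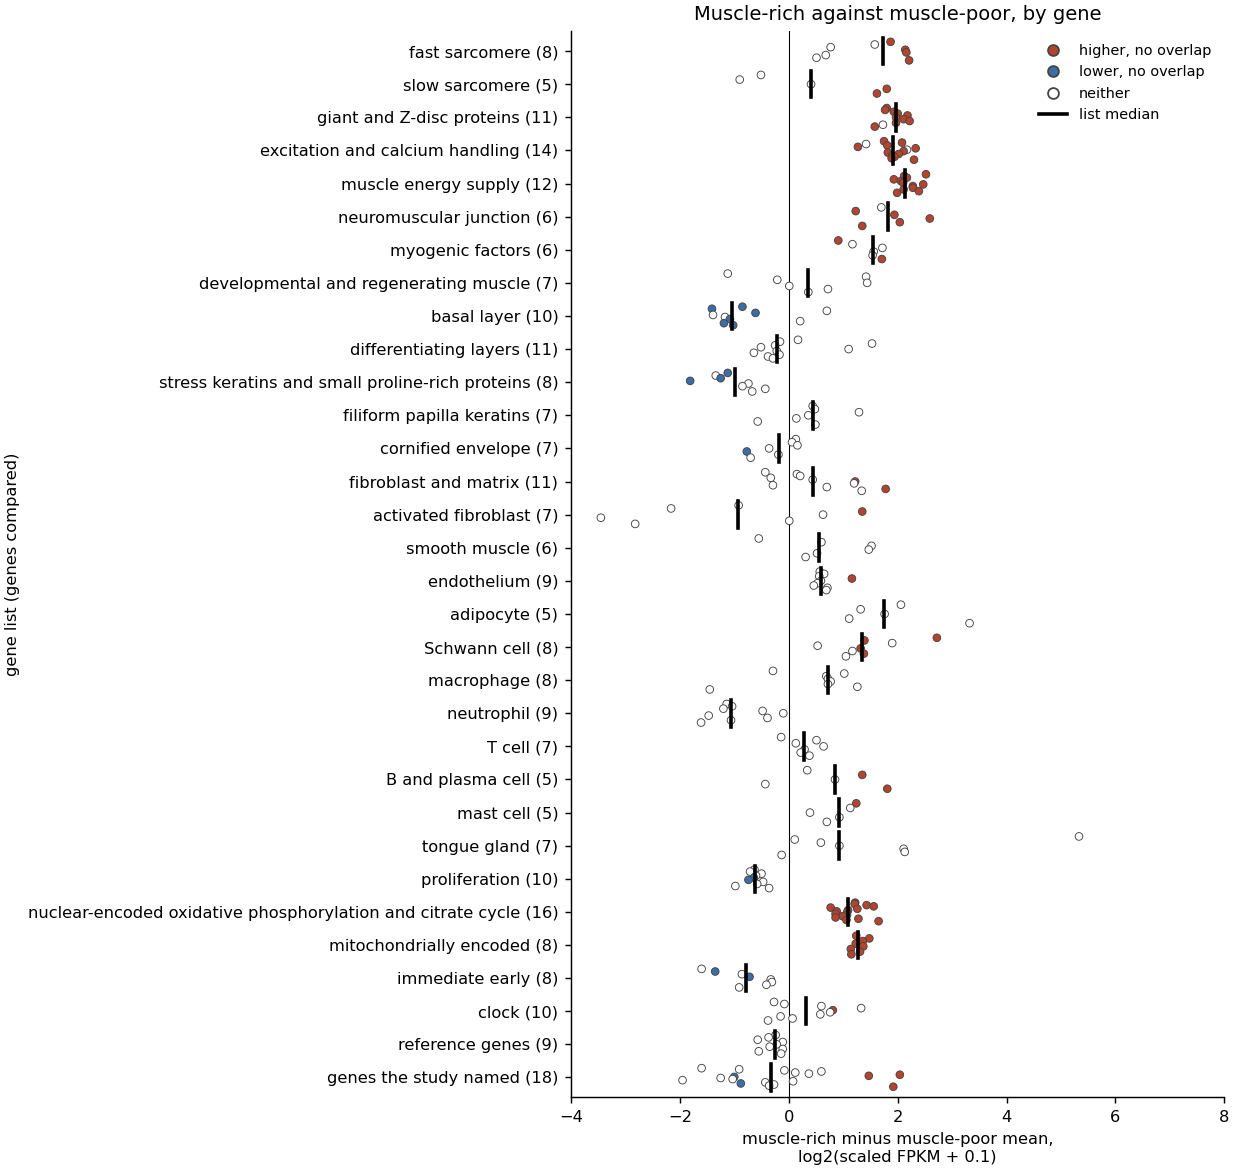
Difference of the muscle-rich and muscle-poor means on the log2(scaled FPKM + 0.1) scale (x axis) for the genes of 32 lists (y axis, number of genes compared in brackets). Each point is 1 gene, red or blue where the libraries of the 2 classes did not overlap and the means differed by at least 0.58, and a black bar is the list median; energy supply (2.14) and the other sarcomere, calcium and mitochondrial lists lie to the right and the basal layer (-1.05) to the left.

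Among genes of the fast sarcomere list, Tnni2, Myl1 and Myoz1 followed the score closely. Tnni2, the fast troponin I, was at 138, 178, 298 and 250.4 scaled FPKM in the muscle-poor libraries and at 819, 853, 905 and 1176 in the muscle-rich ones, a difference of 2.16 ± 0.27 (standard error, n = 4 and 4). Myl1, an essential light chain of fast myosin, differed by 2.14 ± 0.20 and Myoz1, a Z-disc protein of fast fibres, by 2.21 ± 0.27. None of these values overlapped between the classes. In all, 4 of 8 genes of the fast sarcomere list were higher (median 1.73). Tnnc2, the fast troponin C, was listed at 0 in 7 libraries and at no more than 0.323 elsewhere, although its partner Tnni2 was abundant, and 74% of its exonic sequence is shared with an opposite-strand gene. Whether counting used the strand is not given in the sources used here.

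The other 4 genes of the list, Myh1, Myh2, Actn3 and Mybpc2, overlapped between the classes. Myh4, the chain of the fastest IIb fibres, was at 176, 217, 323 and 173 in the muscle-poor and 1215, 1228, 365 and 704 in the muscle-rich libraries, a difference of 1.87 ± 0.46. Myh1, the chain of IIx fibres, was at 66.9, 98.0, 102 and 206 against 101, 134, 794 and 1024. Its classes overlapped, because GA 5 and GA 1 lay within the muscle-poor range. The ratio of Myh1 to Myh4 was 1.19 in vehicle 5, 2.17 in GA 2 and 1.45 in vehicle 3, and 0.0713 to 0.453 in the other 9 libraries. These 3 libraries are the ones with high Lipf, and 1 of them was muscle-poor. Myh2, the chain of IIa fibres, followed the same libraries at 3.57, 9.67 and 13.8 scaled FPKM, against 0.242 to 2.17 elsewhere. Actn3 (fast α-actinin) at 35.0, 29.2 and 21 against at most 9.81, and Mybpc2 (fast myosin-binding protein C) at 31.0, 46.5 and 42.5 against at most 11, were likewise highest in vehicle 5, GA 2 and vehicle 3. The part of gland tissue in these values was not tested. Myosin heavy chain genes are near copies of each other, so reads between them may be split with error.

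**Figure D3:**
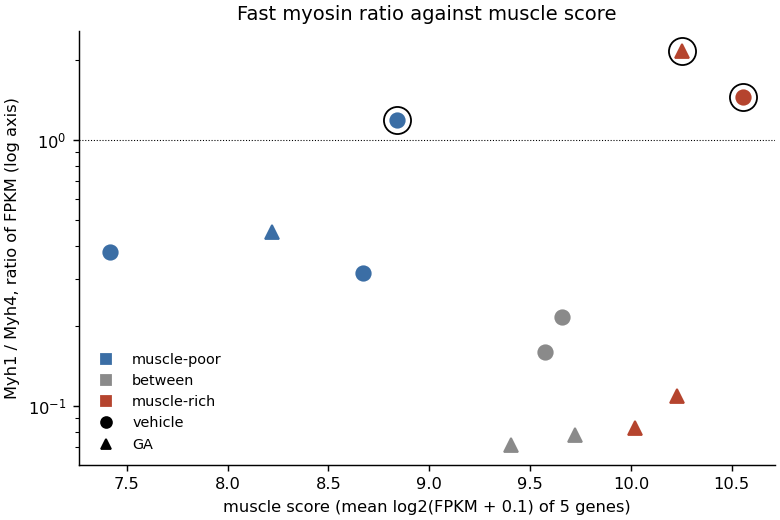
Ratio of Myh1 to Myh4 FPKM (y axis, log scale) against the muscle score (x axis, log2), 1 point per library, coloured by class and shaped by treatment. The 3 ringed libraries with high Lipf lie above 1, at 1.19 to 2.17, and the other 9 at 0.0713 to 0.453.

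The slow-fibre genes Myh7 (slow myosin), Myl2 and Myl3 (slow and cardiac light chains) never exceeded 0.159 scaled FPKM and fell below the mean of 0.1 FPKM required for comparison. Of the 5 slow sarcomere genes compared, 2 were higher, Myoz2 and the abundant Mybpc1, at 37.7 to 78.2 against 179.8 to 220.2 scaled FPKM (1.80 ± 0.25). The list median was 0.41, and -0.27 without GA 2. Tnnt1, slow troponin T, was at 0.492, 0.737, 3.71 and 6.91 against 1.13, 1.06, 10.5 and 2.65, so the classes overlapped.

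The scaffold and the calcium machinery of the fibre were higher almost throughout. Of 11 genes of giant and Z-disc proteins, 10 were higher (median 1.97), and of 14 genes of excitation and calcium handling, 12 were higher (median 1.92). Ttn, which encodes the elastic protein titin, was at 4.36, 8.71, 7.65 and 8.79 against 20.2, 24.0, 21.1 and 38.1, and Tcap, which caps titin at the Z-disc, differed by 2.22 ± 0.30. Ryr1, the calcium release channel, was at 7.78, 15.1, 18 and 23.0 against 43.1, 47.0, 49.5 and 62.8. Sln, a small inhibitor of the calcium pump, differed by 2.33 ± 0.21. In a few genes vehicle 5 overlapped the muscle-rich class. Des, the intermediate filament desmin, was at 251 there against 238 in GA 5, and Pvalb, the calcium buffer parvalbumin of the fastest fibres, was at 62.4 against 22.9 in GA 5 and 38.0 in GA 1. Without vehicle 5 both were counted as higher, by 2.13 and 2.95.

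All 12 genes of muscle energy supply were higher, by 1.93 to 2.52. Ckmt2, the creatine kinase of muscle mitochondria, was at 54.9, 90.5, 159 and 68.9 against 492, 508, 344 and 697 (2.52 ± 0.39). Mb, the oxygen store myoglobin, differed by 2.12 ± 0.25 and Cox7a1, the muscle form of a cytochrome oxidase subunit, by 2.28 ± 0.18. Pgam2, the muscle phosphoglycerate mutase of glycolysis, was at 50.7, 77.7, 101 and 82.6 against 285, 304, 299.7 and 381.

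Mitochondrial genes of every cell were higher as well, by less. All 16 nuclear genes of oxidative phosphorylation and the citrate cycle were higher, with a median of 1.08, and all 8 genes encoded in mitochondrial DNA, with a median of 1.28. Sdhb, a subunit of succinate dehydrogenase, was at 29.8, 28.7, 40.3 and 36.7 against 94.7, 96.0, 83.0 and 127. Uqcrc1, a core protein of complex III, differed by 0.77 ± 0.15. No gene of this list reached the smallest difference of the muscle energy list, 1.93. The genes of mitochondrial DNA took 8.47 to 15.2% of all FPKM in the muscle-poor libraries and 20.2 to 26.5% in the muscle-rich ones.

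**Figure D4:**
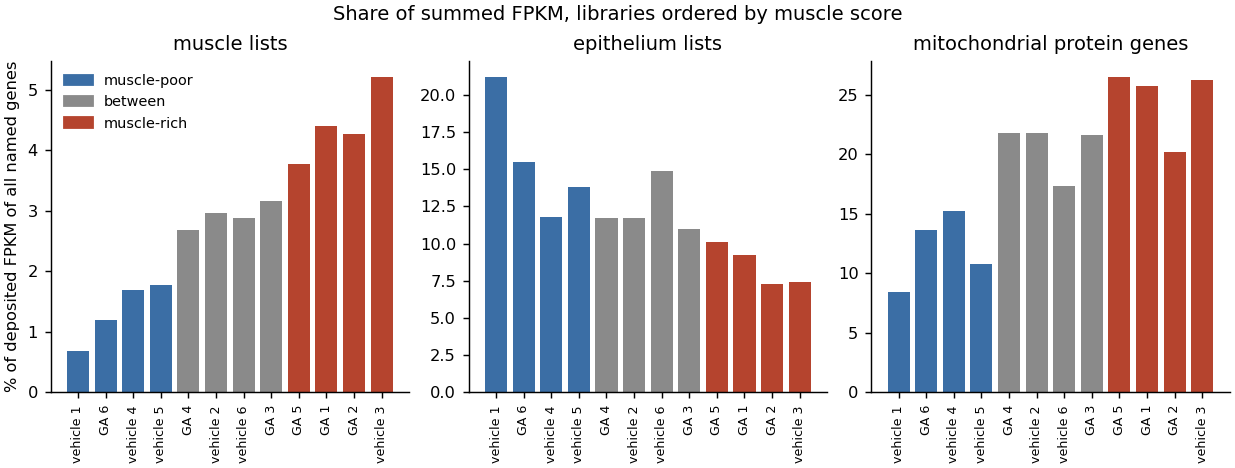
Share of the summed deposited FPKM of all named genes (y axes, %) on the muscle lists, the epithelium lists and the protein genes of mitochondrial DNA, in the 12 libraries ordered by muscle score (x axes), coloured by class. The muscle-rich libraries hold 3.77 to 5.21% muscle, 7.31 to 10.1% epithelium and 20.2 to 26.5% mitochondrial genes, against 0.691 to 1.78%, 11.8 to 21.2% and 8.47 to 15.2% in the muscle-poor ones.

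Genes of the nerve-muscle contact and of muscle identity followed at lower levels. Of 6 neuromuscular junction genes, 5 were higher (median 1.82). Chrne, the adult ε subunit of the acetylcholine receptor, was at 0.290, 0.551, 1.64 and 0.615 against 4.91, 6.17, 2.63 and 4.76 (2.59 ± 0.52), and Musk, the kinase that clusters the receptor, differed by 2.04 ± 0.44. Chrna1, the α subunit, was at 0.0739, 1.19, 2.29 and 3.82 against 3.10, 4.57, 4.52 and 3.26, and vehicle 5 overlapped. Of 6 myogenic factors, 2 were higher, Mef2c (1.71 ± 0.21) and Pax7, the satellite cell factor, which was at 0.0733 to 0.122 against 0.174 to 0.336. At a pseudocount of 1 Pax7 differed by 0.21 and was no longer counted. Without vehicle 5, 5 of the 6 factors were higher, beside 2048 of all 16847 genes.

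Developmental muscle genes did not follow the muscle score. None of 7 was higher or lower, and the median of 0.36 was -0.01 without GA 1 and 0.82 at most with another library left out. Myh3, the embryonic myosin heavy chain, was highest in the muscle-poor library vehicle 5 (1.36 scaled FPKM), at 0.516 in vehicle 1 and 0.428 in GA 2, and at most 0.120 in the other 9. Myh8, the perinatal chain, was at 1.13 in GA 2 and 1.10 in vehicle 3 and at most 0.373 elsewhere.

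Promoters of the higher genes were searched for 2 motifs known from muscle, the E-box CAGCTG bound by the MyoD family and the MEF2 site. A window of 250 bases before and 50 after the RefSeq start was read in GRCm38.p6 for the 9669 of 16847 compared genes with a single window. CAGCTG, which reads the same on both strands, was in 21.4% of the 858 windows of higher genes, 14.7% of the 279 of lower genes, 15.3% of the windows of genes compared and 16.1% of all 22862 windows. The MEF2 site, on either strand, was in 5.01, 1.43, 1.84 and 3.35%, in the same order. For the 39 muscle list genes with a window the shares were 41.0% for CAGCTG and 23.1% for MEF2. For the 25 epithelium list genes the share for CAGCTG was 16.0%, and 2 of the 25 windows held the MEF2 site. That MEF2 share was also above the 5.01% of the higher genes, though it rests on few windows. These are counts of letters and not of bound sites. The windows of Chrna1, Pgam2 and Ckmt2 are shown as muscle genes that hold the E-box. Capitals mark CAGCTG, and in Pgam2 also the MEF2 site. The windows lie on the minus strand at chr2:73580289-73580588 for Chrna1, chr11:5803747-5804046 for Pgam2 and chr13:91876836-91877135 for Ckmt2.
Chrna1: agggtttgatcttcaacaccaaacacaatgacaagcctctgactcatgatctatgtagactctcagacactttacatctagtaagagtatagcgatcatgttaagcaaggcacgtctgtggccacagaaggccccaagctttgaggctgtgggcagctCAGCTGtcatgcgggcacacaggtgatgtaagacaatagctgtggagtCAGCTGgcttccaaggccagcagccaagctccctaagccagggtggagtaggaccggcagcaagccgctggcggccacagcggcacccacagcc
Pgam2: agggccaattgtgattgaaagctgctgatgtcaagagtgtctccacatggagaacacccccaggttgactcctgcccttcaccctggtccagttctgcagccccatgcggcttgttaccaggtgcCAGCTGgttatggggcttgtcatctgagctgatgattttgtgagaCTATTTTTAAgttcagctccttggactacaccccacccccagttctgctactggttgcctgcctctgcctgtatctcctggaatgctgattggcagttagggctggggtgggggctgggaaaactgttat
Ckmt2: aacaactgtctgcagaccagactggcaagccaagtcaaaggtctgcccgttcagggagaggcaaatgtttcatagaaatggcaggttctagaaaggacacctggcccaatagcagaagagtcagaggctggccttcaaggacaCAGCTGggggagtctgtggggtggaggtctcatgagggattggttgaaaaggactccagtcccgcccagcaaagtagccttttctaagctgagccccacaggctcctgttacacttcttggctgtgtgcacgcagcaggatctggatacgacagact
The 2 E-boxes of Chrna1 began 92 and 44 bases before the start, the E-box of Ckmt2 107 bases before it, and the 2 sites of Pgam2 125 and 80 bases before it.

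Epithelial genes were lower in part, and most of that part were basal layer genes and stress keratins. Of 43 genes in 5 epithelium lists, 10 were lower (23.3%, beside 2.91% of all genes compared) and 0 higher, with a median of -0.38. Without the libraries with high Lipf 16 were lower and 3 higher, beside 1285 and 2491 of all 16847 genes. Among the GA libraries alone, with 3 muscle-rich and 1 muscle-poor, the lists differed in direction. Their medians were -1.57 for the basal layer, 0.63 for differentiating layers and -1.27 for stress keratins and small proline-rich proteins. For the filiform papilla and cornified envelope lists they were 3.23 and 1.22. For 5 against 5 libraries 3 were lower, beside 104 of all genes, and for 6 against 6 none, beside 28. The epithelium lists took 21.2, 15.5, 11.8 and 13.8% of all FPKM in the muscle-poor and 10.1, 9.26, 7.31 and 7.42% in the muscle-rich libraries.

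Of 10 basal layer genes, 6 were lower (Krt5, Krt14, Trp63, Col17a1, Dsg3 and Dsc3) and the median was -1.05. Krt14, the basal type I keratin, was at 3420, 8021, 4744 and 6828 scaled FPKM in the muscle-poor libraries and at 1333, 1220, 3344 and 3249 in the muscle-rich ones. The classes came within 75.8 scaled FPKM of each other, and they overlapped on the deposited values without scaling. Within the muscle-rich class GA 5 and GA 1 lay far below GA 2 and vehicle 3. Krt5, its partner, was at 1469, 3070, 1933 and 1952 against 1203, 923, 1222 and 1189 (-0.85 ± 0.24). Dsg3, a desmosomal cadherin of the basal layer, differed by -1.19 ± 0.30. Trp63, the master factor of stratified epithelium, differed by -0.61 ± 0.13, and without GA 2, GA 6 or vehicle 3 in turn its difference was -0.58, -0.54 and -0.58 and no longer counted. Krt15, also a basal keratin, was at 419.9, 85.3, 338 and 160.2 against 902, 653, 134 and 170.2, and overlapped.

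All 8 stress keratins and small proline-rich proteins were below 0 in difference, and 3 of them, Krt6a, Krt16 and Krt17, were counted as lower (median -0.99). Krt17 was at 2124, 6635, 3412 and 3366 against 572, 486, 2120 and 1796 (-1.81 ± 0.64). The lowest muscle-poor and the highest muscle-rich value differed by 3.78 scaled FPKM, and the classes overlapped without scaling. Krt16 was at 8704, 6385, 4249 and 5915 against 1811, 1635, 3846 and 3810. The ratio of Krt17 to Krt5 was 1.45 to 2.16 in the muscle-poor libraries, 0.476 in GA 5 and 0.526 in GA 1, and 1.73 in GA 2 and 1.51 in vehicle 3. Relative to Krt5, then, the last pair did not stand apart from the muscle-poor libraries. Keratins of this group are near copies of each other, and 24.8% of the exonic sequence of Krt6a is shared with an opposite-strand gene.

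Differentiating epithelium did not follow the score. None of 11 genes of the differentiating layers was higher or lower, and the median of -0.22 was 0.32 without vehicle 1. Krt13, the main keratin of the upper layers, was at 22196 in vehicle 1 and 7051 to 7780 in the other 3 muscle-poor libraries, against 13111, 11054, 5579 and 7121. Krt4, its partner, was at 6427, 2457, 3053 and 1939 against 8051, 7017, 963 and 2738. Krt76, a keratin of oral epithelium, was at 1567, 6.89, 279 and 122 against 1055, 807, 162 and 187, so that both the highest and the lowest of these 8 values were in muscle-poor libraries. The 7 genes of the filiform papilla list, which are keratins and Hoxc13, Padi3 and Tchh, had 0 higher and 0 lower. Their median of 0.44 was -0.34 without GA 6, which held the lowest Krt84 (26.5 scaled FPKM, against 61.4 to 811 in the other 11). Of 7 cornified envelope genes only Tgm1, the transglutaminase that cross-links the envelope, was lower (-0.77 ± 0.25), and the list median of -0.19 was 0.50 without vehicle 1.

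**Figure D5:**
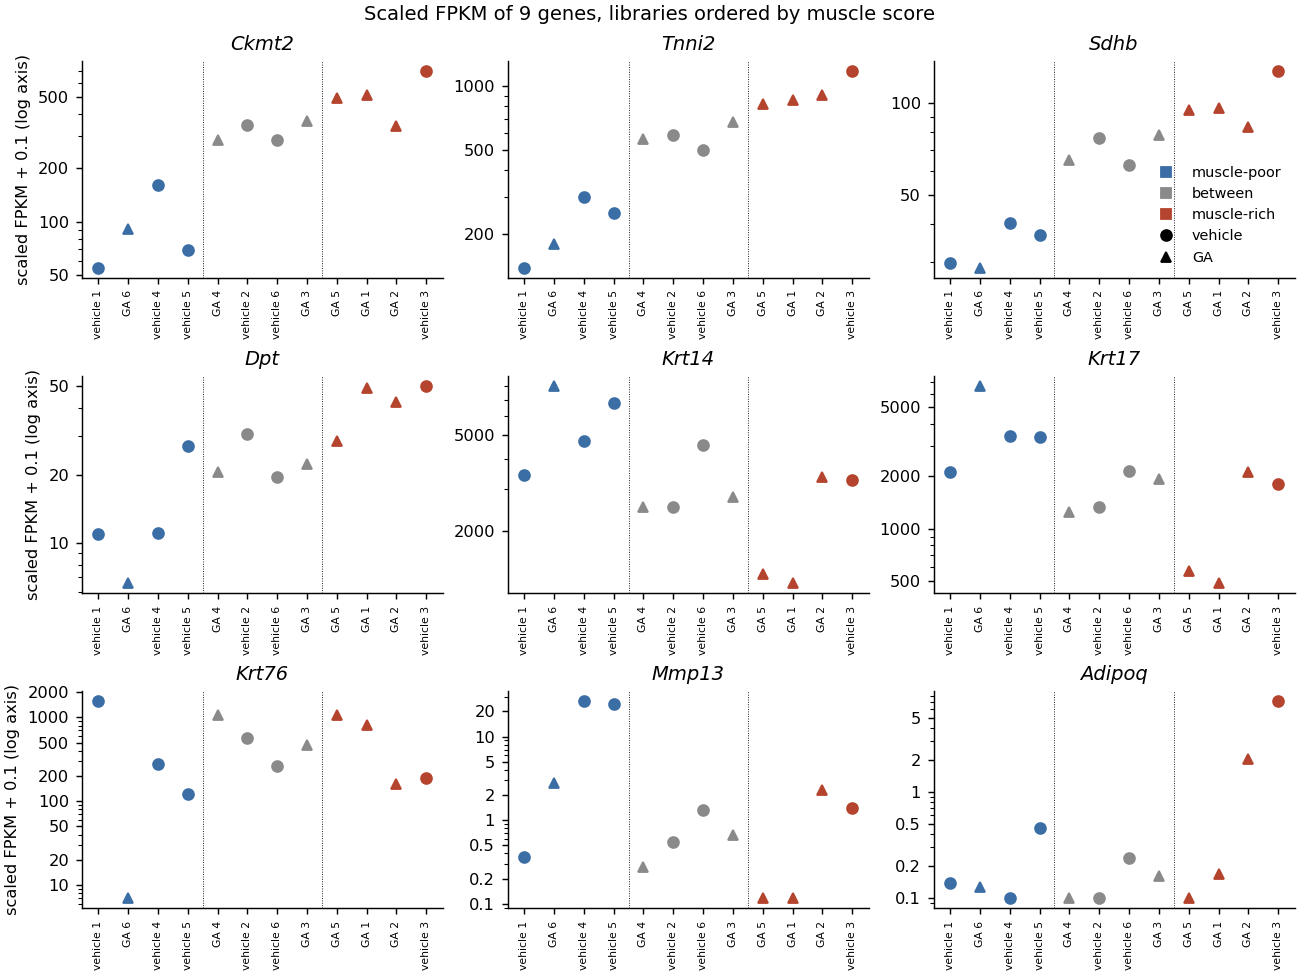
Scaled FPKM + 0.1 (y axes, log scale) of 9 genes in the 12 libraries ordered by muscle score (x axes), coloured by class and shaped by treatment. Ckmt2, Tnni2 and Sdhb climb with the score, Krt14 and Krt17 descend with GA 5 and GA 1 lowest, Krt76 is lowest in GA 6 (6.89), Mmp13 is highest in vehicle 4 and vehicle 5 (26.5 and 24.1), and Adipoq is highest in GA 2 and vehicle 3 (1.96 and 7.10).

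Connective tissue was not simply on the side of the epithelium. Of 46 stromal genes, 8 were higher in the muscle-rich libraries (17.4%, beside 8.76% of all genes compared) and 0 lower, with a median of 0.67. The count was 3 on the deposited values without scaling, beside 1255 of all 16847 genes, and 21 without vehicle 5, beside 2048. Without vehicle 1 there were 3 lower genes, beside 1073 of all. Of 11 fibroblast and matrix genes, 2 were higher. Dpt, the matrix protein dermatopontin, was at 10.9, 6.52, 11 and 26.9 against 28.5, 49.1, 42.6 and 50.1, and Dcn, the proteoglycan decorin, differed by 1.22 ± 0.58 and by 0.69 without GA 6. Both overlapped on the values without scaling. Col1a1, the main fibrillar collagen chain, was at 5.87, 8.23, 35.6 and 77.9 against 5.91, 20.6, 26.8 and 12.6.

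Of the 6 stromal lists, that of Schwann cells, the glia of peripheral nerve, had the largest share of higher genes, 4 of 8, with a median of 1.35. All 9 endothelial genes had positive differences of 0.46 to 1.16, and only Tek, the angiopoietin receptor, was counted as higher. Its difference of 1.16 ± 0.42 was 0.77 without vehicle 1, the library with the lowest endothelial level. Among the libraries without Y-linked reads, GA 5 and GA 2 against GA 6 and vehicle 5, the medians of the endothelial, smooth muscle, fibroblast and macrophage lists were -0.05, -0.01, -0.25 and -0.04, against positive values of 0.59, 0.56, 0.44 and 0.72 in the full contrast.

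Some activated fibroblast genes and the adipocyte genes were high in a few libraries. Of 7 activated fibroblast genes, 1 was higher, Fap, and 0 lower. Their differences were positive in 3 and negative in 4, from -3.45 to 1.35, with a median of -0.92. The mean log2 level of the list was highest in vehicle 4 and vehicle 5, at 2.59 and 2.87. Mmp13, a collagenase, was at 26.5 and 24.1 scaled FPKM there against at most 2.69 in the other 10 libraries. Tnc, the wound matrix protein tenascin C, was at 51.4 and 60.0 there against at most 9.51. Inhba, which encodes the activin A subunit, was at 22.8 and 12 and also at 11.1 in GA 6. Vehicle 1, the library with the least muscle, had 0.263, 1.58 and 0.591 of Mmp13, Tnc and Inhba, so the muscle-poor libraries were not alike in these genes. Fap, the fibroblast activation protein, went the other way at 0.419, 0.217, 0.395 and 0.736 against 1.13, 1.69, 0.770 and 1.42, with overlap on the values without scaling. Adipocyte genes were high in GA 2 and vehicle 3, both with high Lipf. Adipoq, the hormone adiponectin, was at 1.96 and 7.10 there and at most 0.361 elsewhere, and the median of 5 adipocyte genes was 1.76, or 0.09 without the libraries with high Lipf.

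Immune genes were mostly on neither side. Of 34 genes in 5 lists, 3 were higher, 0 lower, and the median was 0.36. The share of higher genes, 8.82%, was near the 8.76% of all genes compared. The higher genes were the B and plasma cell genes Cd79a and Mzb1, at very low levels, and Cma1, a mast cell chymase, at 2.01, 2.05, 2.0 and 2.88 against 5.89, 14.7, 3.18 and 2.96 (1.24 ± 0.54, 0.77 without GA 1, and overlapping without scaling). With 57.2% of its exon bases shared with another gene, Mzb1 is uncertain. All 9 neutrophil genes had negative differences, with a median of -1.06, and none was counted. Csf3r, the G-CSF receptor, was at 8.02 in vehicle 4 and 16.0 in vehicle 5, the libraries with high Mmp13, at 4.38 in GA 2 and at most 0.979 elsewhere. The macrophage and T cell lists had 0 genes on either side.

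Dividing-cell and immediate early genes were lower in mean throughout, though few passed the limits for counting. Counted as lower were 2 of 10 and 2 of 8, beside 2.91% of all genes compared. All 10 proliferation genes had negative differences (median -0.62), and 2 were counted as lower, Bub1, a mitotic checkpoint kinase (-0.74 ± 0.22), and Birc5, survivin (-0.64 ± 0.16, and -0.56 and not counted without vehicle 3). Neither was counted at a pseudocount of 1 (-0.57 and -0.56), nor was Bub1 on the values without scaling (-0.82). All 8 immediate early genes were negative (median -0.79), and 2 were counted. Junb was at 161, 152, 160.2 and 161 against 91.9, 81.2, 141 and 81.8, with GA 2 closest to the muscle-poor libraries, and Fosb differed by -1.35 ± 0.31 at levels below 1 scaled FPKM, and by -0.41 and not counted at a pseudocount of 1. The 9 reference genes were all slightly negative, by 0.11 to 0.57 in size, with a median of -0.24. Of 10 clock genes 1 was higher, beside 8.76% of all genes compared. It was Tef (0.81 ± 0.21), at 0.72 and not counted without scaling.

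The largest differences outside the lists were named by size among genes averaging 1 FPKM or more. Actc1, the cardiac α-actin that is also made in skeletal muscle, led with 2.09, 4.18, 11.2 and 5.25 against 103, 79.1, 26.4 and 117, a difference of 3.86 ± 0.69. Its gene lies at chr2:114047282-114053548, and it is a near copy of the scoring gene Acta1. Prr32, Sbk2 and the transcription factor Tcf15 differed by 3.03 ± 0.61, 2.74 ± 0.48 and 2.73 ± 0.45. Cyp2a5, a cytochrome P450, was at no more than 0.367 in the muscle-poor libraries and at 0.608 to 5.71 in the muscle-rich ones. Klk1b26, a kallikrein, was at 1.30 to 2.92 against 7.60 to 14.5. Both belong to families of near copies. Also among the 10 were Chrne, described above, the long non-coding RNA Gm5532 and the antisense RNA 2310016G11Rik.

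On the lower side Cryba2, a crystallin, was at 2.24, 3.96, 4.82 and 1.68 against 0.124, 0, 1.29 and 0.730 (-2.91 ± 0.93). Rem2, a small GTPase that inhibits calcium channels, differed by -2.39 ± 0.71 and Arc, an immediate early gene known from neurons, by -1.97 ± 0.55. Gjb2, the gap junction protein connexin 26 of epithelium, was at 602, 1045, 607 and 639 against 166, 157, 356 and 334. Serpinb2, an inhibitor of plasminogen activators, was at 61.6 to 201 against 27.8 to 45.6, and Epgn, an EGF receptor ligand of epithelium, at 44.9 to 79.0 against 15.6 to 31.9. Tmprss11e, a serine protease of squamous epithelium, differed by -1.84 ± 0.52. Krt17, Prelid2 and Ifi202b completed the 10.

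The study compared GA with vehicle, so the place of muscle in that comparison was measured with the treatment labels, which the score did not use. The score was 9.12 ± 1.07 in the vehicle group and 9.64 ± 0.766 in the GA group (SD, n = 6 and 6), a difference of 0.52 (exact permutation test, two-sided, p = 0.359, where 0.00216 is the smallest p that the design allows). Of the 6 GA libraries, 5 lay above the vehicle median. The difference was 0.18 without vehicle 1, and 0.81 without vehicle 3 or without GA 6. In limma, 0 of 16852 genes (0%) were called at an adjusted p below 0.1 and a log2 fold change of at least 0.58, and 364 had an unadjusted p below 0.05. With the muscle score as a covariate 0 genes were called and 500 had an unadjusted p below 0.05. Both counts of unadjusted p-values were below the share of 0.05 of the genes that chance alone would give.

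Genes that the study named for GA include several whose level differed between the muscle classes. The study chose this list on these samples, and the muscle-rich class held 3 GA libraries and the muscle-poor class 1. Muscle and treatment therefore cannot be told apart for these genes. Of 18 compared, 3 were higher in the muscle-rich libraries (Ppargc1a, Cd209d and Gzmm), beside 8.76% of all genes compared. Lower were 2 (Hmox1 and Pappa), beside 2.91%, and the median was -0.32. Each of the counted genes lay in the direction that the study gave for GA. Ppargc1a, a coactivator of mitochondrial biogenesis that is abundant in muscle, was at 1.16, 2.23, 2.01 and 1.73 against 6.01, 5.62, 9.80 and 6.68. Its GA minus vehicle difference was 0.83 without and 0.39 with the muscle score in the fit. Cd209d, a lectin of macrophages, was at 0.248 to 0.777 against 0.952 to 3.70, and its GA difference was 1.03 without and 0.70 with the score. The GA difference of Gzmm, a granzyme, went from 1.08 to 0.87. That of Carmil2, a scaffold of T cell co-stimulation, stayed at 0.45, and that of Has2, a hyaluronan synthase, went from -0.72 to -0.97. Hmox1, the heme oxygenase, was at 111, 50.5, 49.7 and 93.2 against 31.8, 29.3, 48.2 and 36.5, and its GA difference went from -0.62 to -0.39. With upper quartile scaling the classes overlapped in Hmox1 (-0.98).

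Areg, an EGF receptor ligand, was at 8.68, 10, 21.3 and 16.0 against 1.58, 1.55, 8.84 and 5.44. GA 2 overlapped vehicle 1 by 0.161 scaled FPKM, and without either of these libraries Areg was lower by -2.41 and -2.15 in place of -1.95. Its GA difference was -1.14 without and -0.86 with the muscle score. Hif1a, the oxygen-sensing factor, was at 52.0, 93.0, 105 and 112 against 22.9, 21.6, 63.2 and 57.0, and Fos at 10, 8.17, 34.2 and 21.7 against 1.58, 3.67, 16.9 and 6.80, both with overlap. Per2, a clock repressor, was at 0.690 to 2.46 against 0.831 to 1.57, and its GA difference was 0.74 without and 0.89 with the score. None of these GA differences was called in either fit (limma, adjusted p of 0.9998 or above). The study, in contrast, reported these genes as up- or downregulated by GA, with edgeR after counting reads. Here limma was fitted to deposited FPKM values, because the files hold no counts. Whether the method or the input accounts for the different outcome was not tested. Whether the muscle term changes any single GA difference was not tested.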

How the data were processed

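RNA-seq was done on 12 tongue samples, 6 per treatment. Libraries were made with the SMARTER mRNA-Seq kit. The authors used HISAT2 with mm10, counted aligned reads with featureCounts and deposited FPKM values per gene. Annotation release and strand setting are not given in the sources used here. Of 55463 rows, the 32498 with a gene name were used. Library totals were recovered from the step of 1 read in low values with GENCODE M21 exon lengths, and 97.8 to 98.4% of these values were whole reads (tolerance 0.02). The number of reads limits precision, and errors cover the spread between samples only.

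TMM scaling, the trimmed-mean method, was applied to FPKM (factors 0.914 to 1.08), and genes averaging 0.1 FPKM or more were kept. GA against vehicle was fitted with limma 3.58.1 (R 4.3.3) with Benjamini-Hochberg adjustment, since the files hold no counts. Groups came from the labels, classes from the muscle score. Scripts were tested on simulated data. The 32 gene lists, their members and the score were chosen with earlier results of these data known. Besides list genes, the 10 genes of largest difference per direction that averaged 1 FPKM or more are named. Pseudocounts, filters, scalings, class sizes, another score, single libraries and strata were varied. A few listed genes are not reported here.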

Additional observations from a re-analysis of the deposited data

Results flagged for a closer look

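Within the vehicle, GA, muscle-rich and muscle-poor groups, the gap of the highest or lowest library to the nearest other, as a share of the group's range, was set against Dixon's 95% critical value for the score, 32 list levels and the genes of the text. Of 466 groups of values, 49 (10.5%) passed, where chance flags about 1 in 20 groups picked without sight of the data. The lists and their members were chosen with earlier results of these data known, so that rate is no fair standard here. The measures also share libraries and are not independent. Part of these values are muscle genes of GA 6, for which the comparison with 1 in 20 says nothing.

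GA 6 was the only muscle-poor library of the GA group, chosen as such by muscle genes, so its low values in muscle genes restate that choice and are no independent sign. It was the lowest GA library in the giant and Z-disc (gap share 0.664), energy supply (0.667), neuromuscular junction (0.687), oxidative phosphorylation (0.641) and mitochondrially encoded (0.648) lists. It was also the lowest in Myl1 (0.710), Tnni2 (0.702), Myoz1 (0.643), Tcap (0.691), Ckmt2 (0.669), Mb (0.713), Cox7a1 (0.772), Mef2c (0.652), Sdhb (0.674), mt-Co1 (0.706), Klk1b26 (0.724), Prr32 (0.678) and Tcf15 (0.814), and in Krt76 (0.626) in epithelium. GA 6 was the highest GA library in the basal layer (0.673) and proliferation (0.626) lists, Krt5 (0.653), Bub1 (0.747) and Tmprss11e (0.697). Among the muscle-poor libraries it was the highest in Gjb2 (0.893) and the lowest in Junb (0.920).

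GA 2 was the highest GA library in the tongue gland (0.888), adipocyte (0.747) and neutrophil (0.709) lists and in Lipf (0.857), Adipoq (0.83), Myh1 (0.707), Myh2 (0.690) and Tnnt1 (0.760). Among the muscle-rich libraries it was the highest in immediate early genes (0.841), Fosb (0.834) and Myh3 (0.939). Vehicle 5 stood apart among the muscle-poor libraries as the highest in gland genes (0.932), Lipf (0.958) and Cma1 (0.942) and the lowest in reference genes (0.923).

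Vehicle 1 was the highest vehicle library in cornified envelope genes (0.679), the lowest in endothelial genes (0.651) and in Chrna1 (0.635), and among the muscle-poor libraries the highest in Krt13 (0.914) and the lowest in Fosb (0.858). Vehicle 3 was the highest vehicle library in Adipoq (0.643). Among the muscle-rich libraries GA 5 was the highest in basal layer genes (0.832) and GA 1 the lowest in Krt5 (0.904).

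In 3 lists the mean level of the list separated the classes without overlap one way among vehicle libraries (1 muscle-rich, 3 muscle-poor) and without overlap the opposite way among GA libraries (3 muscle-rich, 1 muscle-poor). The list level differed by -0.77 in vehicle and 1.14 in GA for differentiating layers, by -0.88 and 1.15 for the cornified envelope and by -0.19 and 1.14 for mast cells. The difference between treatments was not tested.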

How the results depend on the processing

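The muscle, epithelium and stroma class medians and the counts of genes were recomputed under each alternative. The muscle class median stayed within the spread of its libraries except at 6 highest and 6 lowest (1.26 in place of 1.87). Counts of higher and lower genes shrink or grow with the number of libraries that must not overlap. They were 2540 and 1139 for 3 against 3, 742 and 104 for 5 against 5, and 137 and 28 for 6 against 6. They were 2491 and 1285 without the libraries with high Lipf, 3103 and 2103 among vehicle, 3444 and 2830 among GA, 3182 and 1722 among libraries with Y-linked reads, and 2012 and 1521 among those without. A pseudocount of 1 left 309 lower genes. Leaving out 1 library gave 1489 to 2048 higher and 492 to 1073 lower genes. Of 2010 recomputed differences of named genes, 1877 moved by less than the spread of the libraries, and 0 of those counted as higher or lower changed sign. With the other 5 scoring genes Trp63, Dsg3, Dpt, Dcn, Fap, Pappa, Tef and Epgn were no longer counted, while Myh3, Areg and Fos were counted as lower. For lists this was 709 of 766. The muscle score difference between treatments kept its direction under each alternative and passed the 0.05 threshold in none (exact permutation tests), at 0.18 to 0.81 with 1 library left out. In the paired form, with the replicate block, it was 0.52 (exact permutation within pairs, p = 0.5). The replicate numbers did not pair the libraries, with correlations of deviations from -0.37 to 0.08. GA against vehicle gave 0 called genes with the replicate block and in each other setting except without vehicle replicate 4, which gave 1, so leaving out 1 library gave 0 to 1. Unadjusted p-values below 0.05 numbered 245 with the block and 252 to 853 with 1 library left out. Genes near 0.1 FPKM rest on a median of 4 reads per library.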
